A study of Mus musculus with 6 samples.

Results

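Glypicans and syndecans are the proteoglycan families that carry heparan sulfate on the cell surface. The gene set comprised Gpc1, Gpc2, Gpc3, Gpc4 and Gpc6 for the glypicans and Sdc1, Sdc2, Sdc3 and Sdc4 for the syndecans, taken by gene symbol, 9 of the 39179 genes in the deposited files. They were compared by RNA-seq in liver tumours raised in wildtype C57BL/6 mice, with 3 libraries of Myc/NrasG12V tumours and 3 of Myc/Akt1 tumours. Both groups carried a Myc transgene, delivered to hepatocytes on transposable elements by hydrodynamic injection, in which a large volume is pushed quickly into the tail vein. In the first group Myc was joined by NrasG12V, a constitutively active mutant of the GTPase Nras, and in the second by Akt1, a kinase downstream of phosphoinositide 3-kinase. The labels gave neither the promoters that drive the transgenes nor the age of the mice, and no untreated liver was in the comparison. Since the labels leave unsaid whether each tumour had its own mouse, the p-values measure the spread between these samples, which may be technical.

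A glypican core protein is held in the outer membrane leaflet by a glycosylphosphatidylinositol (GPI) anchor, and a syndecan core protein crosses the membrane and ends in a short cytoplasmic tail. Both carry heparan sulfate, a chain of alternating sugars whose sulfation pattern binds growth factors, morphogens, chemokines, proteases and lipoproteins. In liver, Gpc3 is a fetal protein that is low in the adult organ and is used as a marker of hepatocellular carcinoma, and Sdc1 is a hepatocyte receptor for triglyceride-rich lipoproteins.

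The libraries held 17881282 to 27865094 reads assigned to genes, and values are given in CPM, which scales each library to the same sum. A count of 0 allows up to 3 reads in a library, which corresponded to 0.108 to 0.168 CPM and covers counting error only. The targeted transcripts matched the labels, with Nras 3.05-fold higher in Myc/NrasG12V, Akt1 4.30-fold higher in Myc/Akt1, and Myc at 153 ± 29.4 against 154 ± 55.0 CPM (SD, n = 3 each). Differences were tested with limma on log2(CPM + 1) across 14365 genes, and a gene was called at a Benjamini-Hochberg adjusted p under 0.05. All log2 differences below are Myc/NrasG12V minus Myc/Akt1 on that scale, which understates the change of low genes. The median gene stood at -0.26 on this scale and at 0.00 with TMM factors, so calls toward Myc/Akt1 were more frequent on the CPM scale. Of all calls 74.7% were toward Myc/Akt1, against 52.4% with TMM factors.

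RefSeq (GRCm38.p6) gave the 250 bases upstream of its own start site for 6 of the 9 genes: Gpc2, Gpc3, Gpc4, Sdc1, Sdc3 and Sdc4. The windows of Gpc3, Gpc4 and Sdc4, the genes with a window that were called higher in Myc/NrasG12V, and that of Sdc1, called higher in Myc/Akt1, are shown because they let promoters of genes with opposite differences be read side by side. They run 5′ to 3′ on the strand of the gene, and capitals mark the GC box GGGCGG on either strand. They lie at chrX:52613975-52614224 (minus strand) for Gpc3, chrX:52164924-52165173 (minus) for Gpc4, chr2:164443189-164443438 (minus) for Sdc4 and chr12:8771146-8771395 (plus) for Sdc1. The gene bounds given below are those of GENCODE M21, which differ from the RefSeq starts. Within those bounds the Gpc4 and Sdc4 windows lie inside the gene, and the Sdc1 and Gpc2 windows overlap the gene start.
Gpc3: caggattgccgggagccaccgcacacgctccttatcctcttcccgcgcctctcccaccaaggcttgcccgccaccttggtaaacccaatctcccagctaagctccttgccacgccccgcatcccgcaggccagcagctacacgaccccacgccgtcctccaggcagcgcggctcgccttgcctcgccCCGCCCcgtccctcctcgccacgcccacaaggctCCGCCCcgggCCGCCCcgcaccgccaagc
Gpc4: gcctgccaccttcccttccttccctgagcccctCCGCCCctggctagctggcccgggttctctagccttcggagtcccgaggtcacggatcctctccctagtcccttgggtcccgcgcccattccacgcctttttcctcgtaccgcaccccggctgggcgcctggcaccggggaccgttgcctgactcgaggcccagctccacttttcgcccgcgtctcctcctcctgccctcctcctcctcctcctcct
Sdc4: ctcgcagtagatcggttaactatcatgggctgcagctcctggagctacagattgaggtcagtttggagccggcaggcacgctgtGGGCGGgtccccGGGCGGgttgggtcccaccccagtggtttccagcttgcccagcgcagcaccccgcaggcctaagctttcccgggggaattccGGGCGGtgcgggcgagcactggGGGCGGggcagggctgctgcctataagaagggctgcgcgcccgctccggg
Sdc1: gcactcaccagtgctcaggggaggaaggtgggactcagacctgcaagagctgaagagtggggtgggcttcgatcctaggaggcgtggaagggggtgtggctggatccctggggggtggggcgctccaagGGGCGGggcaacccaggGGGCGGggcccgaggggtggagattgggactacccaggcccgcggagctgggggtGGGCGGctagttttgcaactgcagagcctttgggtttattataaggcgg
The Gpc3 window held 3 GC boxes, the nearest of them 14 to 19 bases upstream of the start, the Gpc4 window 1, the Sdc4 window 4 and the Sdc1 window 3. All 6 windows held at least 1 GC box, as did 32.7% of the 32851 windows of the same length in the table. GC content was 71.6% for Gpc3, 68.4% for Gpc4, 68.0% for Sdc4 and 66.0% for Sdc1, against a median of 52.4% over all windows. The Gpc3 window held 25 CpG dinucleotides, against a median of 6. None of the 6 windows held the E-box letters CACGTG (6.02% of all windows), the AP-1 letters TGANTCA (6.75%), the ETS letters CCGGAAGT (2.88%), the CRE letters TGACGTCA (1.55%), the TATA letters TATAAA (12.4%) or the forkhead letters GTAAACA (3.17%), each searched on both strands. These matches describe letters in a 250-base window and say nothing of which factors bound there. The windows of genes with opposite differences thus held the same one of the 7 searched motifs. On the Myc/Akt1 side this rests on Sdc1 alone, which was not called with TMM factors (log2 difference -0.28, limma adjusted p = 0.238).

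Of the 9 genes, all of which were tested, 4 were higher in Myc/NrasG12V (Gpc3, Gpc4, Gpc6 and Sdc4), 2 were higher in Myc/Akt1 (Gpc1 and Sdc1) and 3 were not called (Gpc2, Sdc2 and Sdc3). Across all tested genes 39.5% were called, 10.0% toward Myc/NrasG12V and 29.5% toward Myc/Akt1. The 6 called genes had groups without overlap, as did 52.7% of all tested genes. The median log2 difference of the 9 genes was 0.08, against -0.26 for all tested genes. With TMM factors Sdc1 was no longer called and the other 5 were, where 34.1% of all tested genes were called, 16.2% toward Myc/NrasG12V and 17.9% toward Myc/Akt1.

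**Figure D1:**
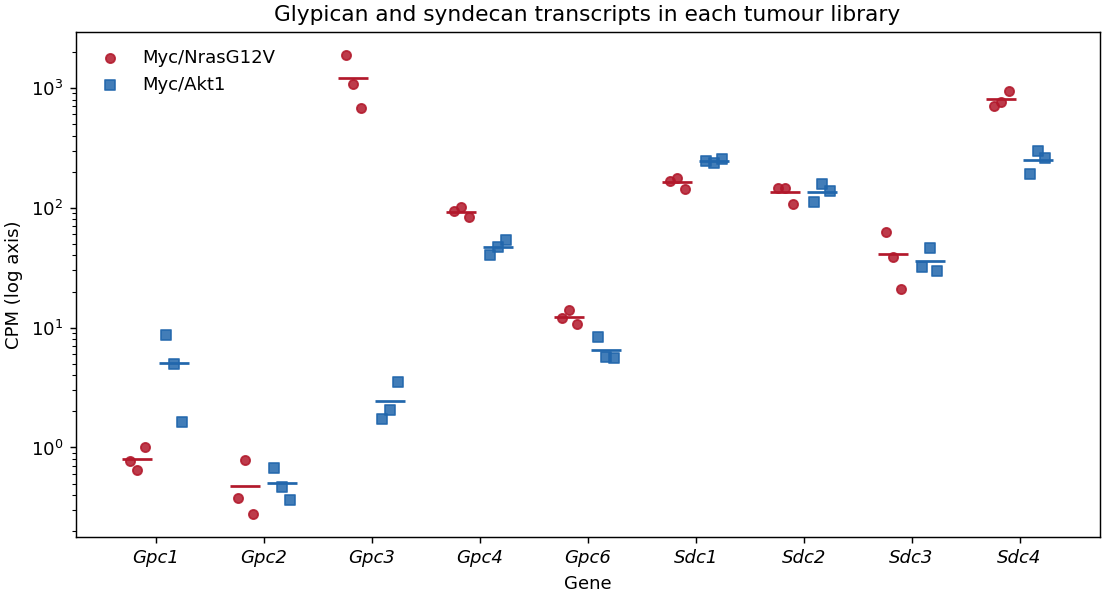
CPM of each glypican and syndecan gene (log axis) in the 3 Myc/NrasG12V libraries (circles) and the 3 Myc/Akt1 libraries (squares), with group means as bars. Gpc3 lies between 674 and 1875 CPM in Myc/NrasG12V and between 1.74 and 3.54 CPM in Myc/Akt1, and Gpc2, Sdc2 and Sdc3 overlap between the groups.

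Gpc3 set the groups apart most. Gpc3 (ENSMUSG00000055653, chromosome X, 52272426 to 52613950, minus strand, GRCm38), which binds Wnt and Hedgehog ligands, was at 1875, 1068 and 674 CPM in Myc/NrasG12V replicates 1, 2 and 3 and at 1.74, 2.05 and 3.54 CPM in Myc/Akt1 replicates 1, 2 and 3. The lowest Myc/NrasG12V library was far above the highest Myc/Akt1 library, and the Myc/NrasG12V libraries differed among themselves, the highest being 2.78 times the lowest. The means of 1206 ± 612 and 2.44 ± 0.966 CPM (SD, n = 3 each) differed 494-fold, from 74594 against 176 reads. The log2 difference was 8.36 ± 0.36 (SE; 95% interval 7.55 to 9.18; limma adjusted p = 7.08e-06). It remained called in all 18 alternatives of scaling, filter, pseudocount, test, replicate block and left-out library, with log2 differences from 7.23 to 9.30. In bulk tumour RNA, fewer cells of a type and less RNA per cell cannot be told apart.

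Gpc4 lies 107 kb from Gpc3 on the same strand of the X chromosome (ENSMUSG00000031119, 52053021 to 52165252). Gpc4, a glypican that acts in growth factor signalling, was at 93.6, 102 and 83.9 CPM in Myc/NrasG12V and at 40.3, 47.5 and 53.4 CPM in Myc/Akt1. Every Myc/NrasG12V library was above every Myc/Akt1 library, with means of 93.0 ± 8.90 and 47.1 ± 6.56 CPM (SD, n = 3 each). The 1.98-fold difference gave a log2 value of 0.97 ± 0.17 (SE; limma adjusted p = 0.00271) and was called in all 18 alternatives. Gpc6 (ENSMUSG00000058571, chromosome 14, 116925315 to 117976544, plus strand) is a large gene of the same subfamily as Gpc4. Its values were 11.9, 14.0 and 10.7 CPM in Myc/NrasG12V and 8.40, 5.67 and 5.59 CPM in Myc/Akt1, again without overlap. The means of 12.2 ± 1.65 and 6.55 ± 1.60 CPM (SD, n = 3 each) differed 1.86-fold, with a log2 difference of 0.82 ± 0.24 (SE; limma adjusted p = 0.0245). This call ended without Myc/NrasG12V replicate 1 (limma adjusted p = 0.0660) or 2 (0.0877), without Myc/Akt1 replicate 2 (0.0932) or 3 (0.0644), and without a filter on low genes (0.0505).

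Gpc1 had the opposite direction. Gpc1 (ENSMUSG00000034220, chromosome 1, 92831645 to 92860779, plus strand), a glypican that acts as a co-receptor for fibroblast growth factors, was at 0.764, 0.643 and 1.01 CPM in Myc/NrasG12V and at 8.61, 4.95 and 1.64 CPM in Myc/Akt1. The ranges of the groups were apart, but Myc/Akt1 replicate 3 was much nearer to the Myc/NrasG12V libraries than replicate 1. The means of 0.804 ± 0.185 and 5.07 ± 3.49 CPM (SD, n = 3 each) differed 6.30-fold, and 4.09-fold without Myc/Akt1 replicate 1. The log2 difference was -1.57 ± 0.42 (SE; limma adjusted p = 0.0177). The limma adjusted p was 0.0536 without Myc/NrasG12V replicate 2, 0.0510 without Myc/Akt1 replicate 1 and 0.0604 without Myc/Akt1 replicate 2. Gpc2 (ENSMUSG00000029510, chromosome 5, 138273655 to 138280005, minus strand), known from the developing nervous system, was at 0.382, 0.781 and 0.280 CPM in Myc/NrasG12V and at 0.679, 0.467 and 0.364 CPM in Myc/Akt1. The groups overlapped, with 30 and 37 reads in all, and the interval of the log2 difference ran from -0.47 to 0.41 (limma adjusted p = 0.916). Gpc5, the remaining glypican gene, had 0 reads in all 6 libraries. An annotated gene on the same strand, Gm43720, shares 55.6% of the exon bases of Gpc2 and is not among the deposited genes. Of the exon bases of Gpc1, 18.9% overlap the antisense gene Ankmy1, which had 16 reads over all libraries.

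Among the syndecans Sdc4 differed most. Sdc4 (ENSMUSG00000017009, chromosome 2, 164424247 to 164443887, minus strand), which takes part in focal adhesions and binds protein kinase C alpha through its tail, was at 707, 765 and 949 CPM in Myc/NrasG12V and at 191, 296 and 259 CPM in Myc/Akt1. The groups were well separated. The means of 807 ± 126 and 248 ± 53.4 CPM (SD, n = 3 each) differed 3.25-fold, and the log2 difference was 1.71 ± 0.22 (SE; limma adjusted p = 6.97e-04). Sdc4 was called in all 18 alternatives, with log2 differences from 1.53 to 2.08.

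Sdc1 (ENSMUSG00000020592, chromosome 12, 8771323 to 8793715, plus strand), the lipoprotein receptor of hepatocytes, was at 167, 179 and 144 CPM in Myc/NrasG12V and at 245, 238 and 256 CPM in Myc/Akt1. Every Myc/Akt1 library was above every Myc/NrasG12V library. The means of 163 ± 17.9 and 246 ± 8.78 CPM (SD, n = 3 each) differed 1.51-fold, with a log2 difference of -0.60 ± 0.16 (SE; limma adjusted p = 0.0171). With TMM factors the log2 difference was -0.28 and the limma adjusted p 0.238, beside a median gene at 0.00 on that scale. The call also ended without Myc/NrasG12V replicate 1 (limma adjusted p = 0.0503) and without Myc/Akt1 replicate 1 (0.0633) or 2 (0.0520).

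Sdc2 (ENSMUSG00000022261, chromosome 15, 32920723 to 33034935, plus strand), a syndecan of fibroblasts and hepatocytes, was at 147, 147 and 108 CPM in Myc/NrasG12V and at 111, 157 and 138 CPM in Myc/Akt1. The groups overlapped, and the log2 difference of -0.01 had a 95% interval from -0.47 to 0.44 (limma adjusted p = 0.965). Sdc3 (ENSMUSG00000025743, chromosome 4, 130792537 to 130826319, plus strand), best known from neurons, was at 62.7, 39.2 and 20.9 CPM in Myc/NrasG12V and at 31.9, 45.8 and 29.9 CPM in Myc/Akt1. Myc/NrasG12V held both the highest and the lowest of the 6 values, a 3.01-fold range within the group. The log2 difference of 0.08 had an interval from -0.75 to 0.90 (limma adjusted p = 0.887), and it was -0.29 without Myc/NrasG12V replicate 1 and 0.48 without replicate 3.

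**Figure D2:**
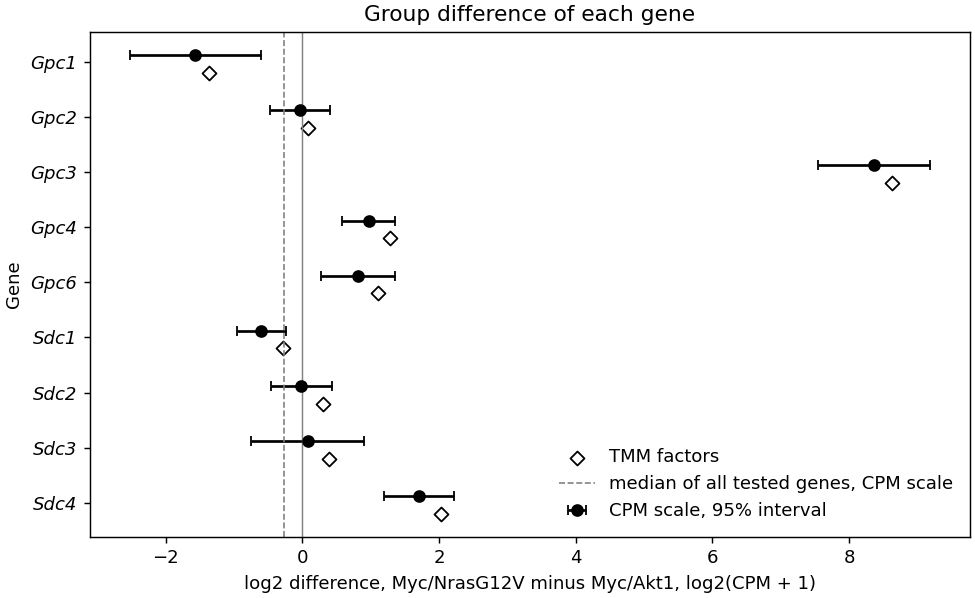
Log2 difference of each gene, Myc/NrasG12V minus Myc/Akt1, on log2(CPM + 1), with 95% intervals from limma (filled circles) and the estimate with TMM factors (open diamonds); the dashed line is the median of all tested genes. Gpc3 stands at 8.36 and Sdc4 at 1.71, and Sdc1 moves from -0.60 to -0.28 with TMM factors, for which the median of all tested genes was 0.00 in place of the dashed line at -0.26.

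To set the genes beside each other, CPM was divided by the length of their exons in kilobases (GENCODE M21). In Myc/NrasG12V the level was 448 ± 228 CPM per kb for Gpc3 and 317 ± 49.6 for Sdc4 (SD, n = 3 each). Those ranges overlapped: Gpc3 was above Sdc4 in replicates 1 and 2, and Sdc4 was above Gpc3, at 373 against 251 CPM per kb, in replicate 3. Sdc1 followed at 42.8 ± 4.69, Sdc2 at 38.1 ± 6.38 and Gpc4 at 35.1 ± 3.36 CPM per kb (SD, n = 3 each), and neighbours in this stretch overlapped. Sdc3 (6.83 ± 3.50), Gpc6 (1.90 ± 0.257), Gpc1 (0.156 ± 0.0359) and Gpc2 (0.112 ± 0.0619) came last (CPM per kb; SD, n = 3 each), the last pair overlapping.

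In Myc/Akt1 the order was Sdc4 (97.6 ± 21.0), Sdc1 (64.7 ± 2.31), Sdc2 (38.4 ± 6.48), Gpc4 (17.8 ± 2.47) and Sdc3 (5.99 ± 1.45), with no overlap between neighbours (CPM per kb; SD, n = 3 each). Gpc6 (1.02 ± 0.249), Gpc1 (0.982 ± 0.676) and Gpc3 (0.908 ± 0.359) overlapped, and Gpc2 was lowest at 0.118 ± 0.0376 (CPM per kb; SD, n = 3 each). Gpc3 was thus the first of 9 by mean level in Myc/NrasG12V and the eighth in Myc/Akt1, and Sdc4 led the syndecans in both.

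The summed level of all 9 genes was 1108, 833 and 729 CPM per kb in Myc/NrasG12V and 195, 252 and 236 in Myc/Akt1, a 3.91-fold difference of means. Glypicans summed to 735, 438 and 284 CPM per kb against 19.0, 20.6 and 22.7, or 23.4-fold, and syndecans to 373, 395 and 444 against 176, 231 and 213, or 1.96-fold. Without Gpc3 the other glypicans differed 1.88-fold, at 37.3 ± 3.63 against 19.9 ± 1.54 CPM per kb (SD, n = 3 each). No sum overlapped between the groups, and the two-sided exact permutation p was 0.1 for each, the smallest that 3 against 3 libraries allow.

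Glypicans made up 66.3, 52.5 and 39.0% of the summed level in Myc/NrasG12V and 9.72, 8.20 and 9.65% in Myc/Akt1. Nearly all of the Myc/NrasG12V share was Gpc3, at 48.3 ± 14.3% against 0.398 ± 0.141% in Myc/Akt1 (SD, n = 3 each). Sdc4 took 37.4 ± 13.1% and 42.6 ± 3.96% (SD, n = 3 each; two-sided exact permutation p = 0.6). Sdc1 took 4.92 ± 0.867% in Myc/NrasG12V and 28.8 ± 4.09% in Myc/Akt1, and Sdc2 4.33 ± 0.627% and 16.8 ± 0.772% (SD, n = 3 each). These shares are tied to each other, and the Gpc3 share lowers the others in Myc/NrasG12V. Gpc3 was not the only gene to do so for Sdc1 and Sdc2. The sum without Gpc3 was still 442 ± 33.9 against 227 ± 28.9 CPM per kb, with Sdc4 at 317 against 97.6 (SD, n = 3 each). The similar share of Sdc4 therefore does not mean a similar level.

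**Figure D3:**
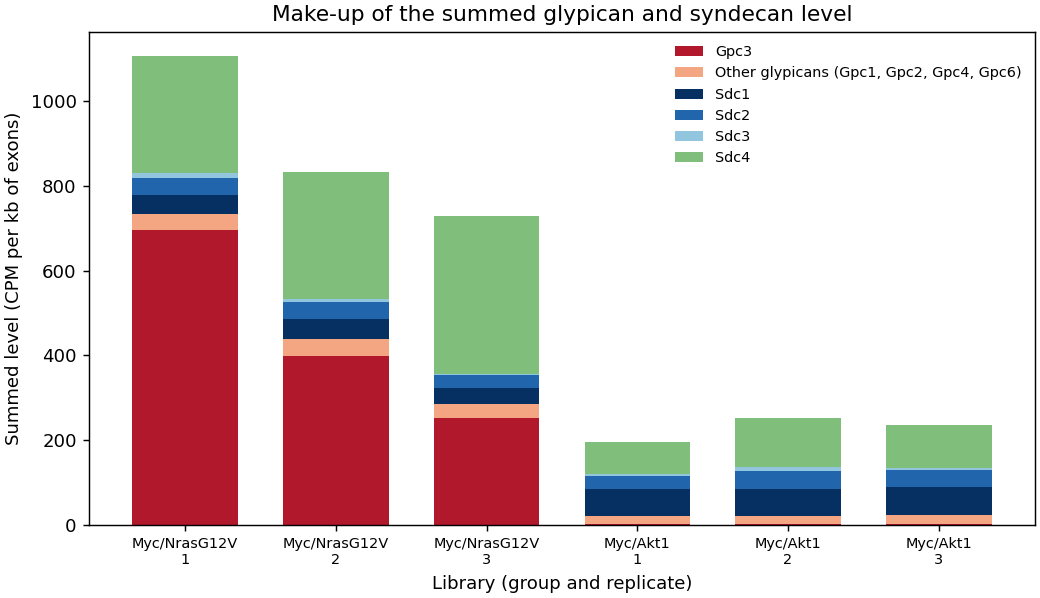
Summed level of the 9 genes in each library in CPM per kb of exons, stacked by gene, with Gpc1, Gpc2, Gpc4 and Gpc6 drawn together. The Myc/NrasG12V columns reach 729 to 1108 CPM per kb with Gpc3 and Sdc4 as the main blocks, and the Myc/Akt1 columns reach 195 to 252 CPM per kb with almost no Gpc3.

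The genes around Gpc3 and Gpc4 did not share their direction. Of the 5 protein-coding genes on each side of either, 6 other genes were tested. Phf6, a chromatin protein, was at 9.06 ± 0.686 against 24.5 ± 0.728 CPM (log2 difference -1.35, limma adjusted p = 8.47e-04), Fam122b at 2.22 ± 0.451 against 12.1 ± 1.49 CPM (-2.03, 3.50e-04) and Mbnl3, a splicing regulator, at 0.896 ± 0.345 against 5.49 ± 1.71 CPM (-1.76, 0.00120), each higher in Myc/Akt1 and also with TMM factors (SD, n = 3 each). Rap2c, a small GTPase, was called toward Myc/Akt1 (-0.70, limma adjusted p = 0.0121) but not with TMM factors. Hs6st2, a heparan sulfate 6-O-sulfotransferase (limma adjusted p = 0.358), and Hprt, an enzyme of purine salvage (0.0693), were not called.

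**Figure D4:**
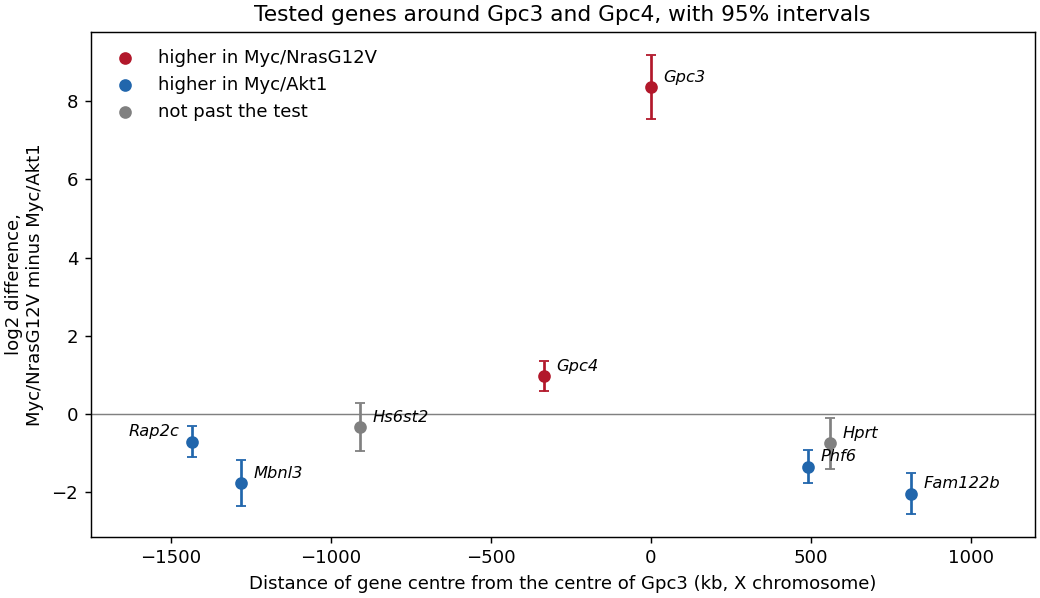
Log2 difference with 95% intervals of the tested genes around Gpc3, against the distance of their centres from the centre of Gpc3 in kb. Gpc3 at 8.36 and Gpc4 at 0.97 are above 0, and the 6 tested neighbours are below it, 4 of them past the test.

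Around all 9 genes, 80 neighbours were annotated and 44 tested, of which 1 was called toward Myc/NrasG12V and 17 toward Myc/Akt1, where 10.0% and 29.5% of all tested genes were called in those directions. With TMM factors the counts were 2 and 10, beside 16.2% and 17.9% of all tested genes. The 1 was Slpi, a secreted protease inhibitor 35.2 kb from Sdc4, at 56.6 ± 21.7 against 20.0 ± 3.04 CPM (SD, n = 3 each; limma adjusted p = 0.00488). Beside Gpc6, at 36.2 kb, Dct, the pigment enzyme dopachrome tautomerase, had the reverse of the Gpc6 difference. Dct was at 0, 0.0459 and 0.0559 CPM in Myc/NrasG12V and at 30.1, 39.9 and 32.3 CPM in Myc/Akt1, from 2 against 2533 reads. The pooled ratio was 1045 with a 95% counting interval from 289 to 8634, and the limma adjusted p was 7.08e-06. The other neighbours that were called in every alternative were Cmbl near Sdc2 (log2 difference -3.26), Ttc32 near Sdc1 (-1.70), Capn10 near Gpc1 (-1.09), Zcchc17 near Sdc3 (-1.01) and Mecr near Sdc3 (-0.84), all higher in Myc/Akt1.

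By root mean square distance of centred log2(CPM + 1) over the 6 libraries, the profiles nearest to Gpc3 were those of A2m (distance 0.662), a plasma protease inhibitor, Tff3 (0.708), a mucosal peptide, and Tspan8 (0.766), a tetraspanin. A2m was at 390 ± 64.3 against 0.973 ± 0.774 CPM (SD, n = 3 each), 401-fold, and 743-fold without Myc/Akt1 replicate 2. Among those nearest to Gpc4 was Hpcal1 (0.0607), a calcium sensor. Nearest to Sdc4 were Cd163 (0.114), the haptoglobin receptor of macrophages, Fkbp5 (0.150), a glucocorticoid-induced immunophilin, and Hivep2 (0.153), a zinc finger protein. For Sdc1 they were Asnsd1 (0.0427), Tmed10 (0.0448), a vesicle cargo receptor, and Spata17 (0.0493), for Gpc6 Cd63-ps (0.0640), Sptlc2 (0.112), a subunit of serine palmitoyltransferase, and Osm (0.117), the cytokine oncostatin M. For Gpc1 they were Rbl1 (0.199), a retinoblastoma family member, Aqp7 (0.202), a glycerol channel, and Cd109 (0.203), a GPI-anchored protein. These distances mostly reflect the group difference, since there were only 3 libraries a group. On this scale, which understates the change of low genes, a near profile need not have a similar fold. Spata17 (11 against 53 reads) differed 4.21-fold beside 1.51-fold for Sdc1. Cd63-ps (69 against 16 reads) and Osm (71 against 17) differed 4.99-fold and 4.97-fold beside 1.86-fold for Gpc6.

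The genes that build, modify, cut or use heparan sulfate proteoglycans were read in 12 lists with 113 tested genes. The calls numbered 21 toward Myc/NrasG12V and 21 toward Myc/Akt1 (37.2% called, against 39.5% of all tested genes), with a median log2 difference of 0.00. All tested genes split into 10.0% toward Myc/NrasG12V and 29.5% toward Myc/Akt1. With TMM factors 30 of the listed genes were called toward Myc/NrasG12V and 9 toward Myc/Akt1, where all tested genes split into 16.2% and 17.9%. Of the 42 calls, 19 held in every alternative, 11 toward Myc/NrasG12V and 8 toward Myc/Akt1.

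Of 8 tested genes that start the chain and build its linkage, 1 was called toward Myc/NrasG12V and 2 toward Myc/Akt1, and with TMM factors 2 and 1. Xylt2, the xylosyltransferase that begins the linkage on the core protein, was 2.19-fold higher in Myc/NrasG12V, at 28.4 ± 4.91 against 13.0 ± 2.79 CPM (SD, n = 3 each; limma adjusted p = 0.00573). The phosphatase and the kinase that act on the linkage xylose were both higher in Myc/Akt1, the phosphatase Pxylp1 2.10-fold (limma adjusted p = 0.00874) and the kinase Fam20b 1.61-fold (0.0239), and Fam20b was not called with TMM factors. The chain polymerase subunits Ext1 and Ext2 had log2 differences of 0.01 and -0.03, with limma adjusted p of 0.961 and 0.891. The related Extl1 was 10.0-fold higher in Myc/Akt1. It was at 2.53, 0.918 and 1.79 CPM in Myc/NrasG12V and at 14.8, 15.4 and 22.4 CPM in Myc/Akt1, without overlap (limma adjusted p = 2.82e-04).

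Among 8 tested sulfotransferases and the epimerase, Hs3st3b1, a 3-O-sulfotransferase, was 2.20-fold higher in Myc/NrasG12V, at 63.9 ± 8.26 against 29.0 ± 8.30 CPM (SD, n = 3 each; limma adjusted p = 0.00612). Hs6st1, a 6-O-sulfotransferase, was 1.71-fold higher in Myc/Akt1 (limma adjusted p = 0.0191) and was not called with TMM factors, and the other 6 were not called. Hs3st6, the next of them, had a limma adjusted p of 0.0608. Of 7 genes that supply the sulfate donor PAPS, 3 were higher in Myc/Akt1 and 0 in Myc/NrasG12V, and with TMM factors 3 and 1. Papss1, a PAPS synthase, was 2.32-fold (limma adjusted p = 0.00726), Impad1, the Golgi phosphatase that clears the spent donor, 2.15-fold (0.00424) and Slc26a1, a sulfate transporter, 5.67-fold higher (0.00856). Slc26a1 was at 39.7, 37.9 and 5.37 CPM in Myc/NrasG12V and at 113, 196 and 162 CPM in Myc/Akt1, so Myc/NrasG12V replicate 3 was far below its group. The sulfate transporter Slc26a2 had a log2 difference of -0.08 (limma adjusted p = 0.789).

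The endosulfatases that edit the finished chain, Sulf1 and Sulf2, were not called (limma adjusted p = 0.521 and 0.491). Heparanase, Hpse, which cuts it, was 1.98-fold higher in Myc/NrasG12V (limma adjusted p = 0.0363), a call that ended in 6 of 18 alternatives. On leaving out any library but Myc/NrasG12V replicate 3 its adjusted p was 0.0763 to 0.128. Of 8 lysosomal genes that degrade heparan sulfate, Idua was 1.72-fold (limma adjusted p = 0.0348) and Arsg 1.63-fold (0.0203) higher in Myc/NrasG12V, and Gusb was 1.54-fold higher in Myc/Akt1 (0.0407). Each of the 3 lost its call in some alternatives, Idua in 5, Arsg in 3 and Gusb in 12 of 18. None was called when Myc/NrasG12V replicate 1, Myc/NrasG12V replicate 2 or Myc/Akt1 replicate 1 was left out, in that order with limma adjusted p of 0.113, 0.0623 and 0.0862 for Idua and 0.0819, 0.0610 and 0.0779 for Arsg, and Gusb was not called with TMM factors (0.298). With TMM factors 4 of the 8 lysosomal genes were called toward Myc/NrasG12V and 0 toward Myc/Akt1.

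**Figure D5:**
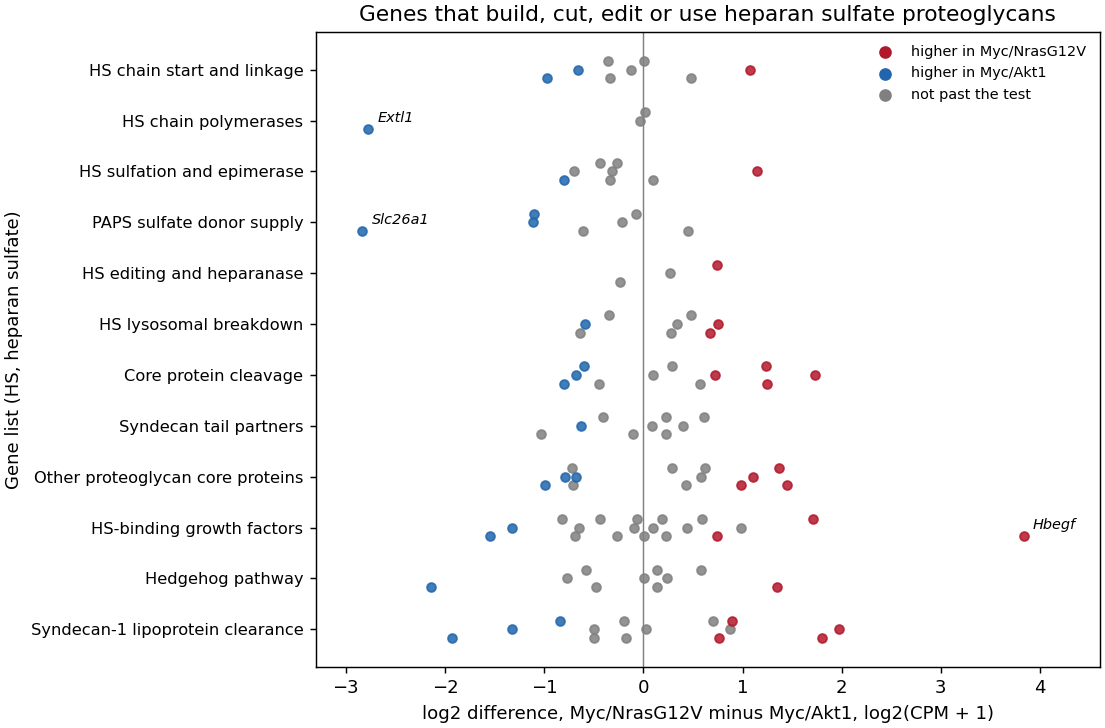
Log2 difference, Myc/NrasG12V minus Myc/Akt1, of every tested gene in 12 lists around heparan sulfate proteoglycans, 1 point a gene, coloured by the limma call. The lists hold 21 genes called in each direction, and Hbegf, Extl1 and Slc26a1 are labelled.

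Core proteins can be released from the membrane. Of 11 genes that cleave them or hold such proteases in check, 4 were called toward Myc/NrasG12V and 3 toward Myc/Akt1. Furin, the convertase that processes Gpc3, was at 292, 312 and 315 CPM in Myc/NrasG12V and at 116, 126 and 149 CPM in Myc/Akt1, 2.35-fold higher in the former (limma adjusted p = 7.17e-04). Mmp7, a matrix metalloprotease that sheds Sdc1, was at 2.76 ± 1.26 against 0.0881 ± 0.0898 CPM (SD, n = 3 each; limma adjusted p = 0.00151), from 168 against 7 reads. That was 31.4-fold, and 65.1-fold without Myc/Akt1 replicate 2. Mmp9 was 7.99-fold higher in Myc/NrasG12V (limma adjusted p = 0.0128), 4.95-fold without Myc/NrasG12V replicate 3 and not called without Myc/Akt1 replicate 1 (0.0507), and Mmp14 was 1.67-fold higher (0.0261; 0.0514 with the replicate block, 0.0588 without Myc/NrasG12V replicate 2, 0.0570 without Myc/Akt1 replicate 2 and 0.0727 without replicate 3). Toward Myc/Akt1 were the sheddases Adam17 (1.80-fold, limma adjusted p = 0.0159) and Adam10 (1.62-fold, 0.0211) and the convertase Pcsk6 (1.53-fold, 0.0271), and none of these was called with TMM factors. Notum, which cuts the GPI anchor of glypicans, was at 4.66 against 4.42 CPM (limma adjusted p = 0.791).

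Of 9 tested partners of the syndecan tails, Cask, a scaffold kinase, was 1.58-fold higher in Myc/Akt1 (limma adjusted p = 0.0333) and not called with TMM factors. With those factors the list had 1 call toward Myc/NrasG12V and 0 toward Myc/Akt1, and with upper-quartile factors 3 and 0. Neither Sdcbp (syntenin), which binds the tail end (limma adjusted p = 0.328), nor Prkca, the kinase partner of Sdc4 (0.720), was called on the CPM scale. The tail partners next in order were Tiam1 and Actn4, with limma adjusted p of 0.117 and 0.120.

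Among 13 tested core proteins of other proteoglycans, 5 were called toward Myc/NrasG12V with TMM factors and 4 on the CPM scale. These were Dcn (decorin) at 138 ± 15.8 against 53.6 ± 14.0 CPM (SD, n = 3 each; 2.57-fold, limma adjusted p = 0.00136), Bgn (biglycan; 1.99-fold, 0.00238), Srgn (serglycin, of leukocyte granules; 2.25-fold, 0.00425) and Tgfbr3 (betaglycan; 3.20-fold, 0.00682). All 4 were called in every alternative. Higher in Myc/Akt1 were Nrp1 (neuropilin 1; 2.04-fold, limma adjusted p = 0.00684), Hspg2 (perlecan; 1.63-fold, 0.0187) and Cspg4 (2.42-fold, 0.0217), the last pair not with TMM factors and Nrp1 not with median-of-ratios (0.0525) or upper-quartile factors (0.0556).

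Of 19 tested factors that bind heparan sulfate, 3 were called toward Myc/NrasG12V and 2 toward Myc/Akt1, and with TMM factors 4 and 1. Hbegf, heparin-binding EGF-like growth factor, was at 45.0, 44.6 and 114 CPM in Myc/NrasG12V and at 4.75, 3.19 and 2.45 CPM in Myc/Akt1. The groups were far apart, 19.6-fold by means and 12.9-fold without Myc/NrasG12V replicate 3 (limma adjusted p = 2.11e-04). Igfbp3, a carrier of insulin-like growth factors, was 4.16-fold higher in Myc/NrasG12V (limma adjusted p = 0.0286) and 2.00-fold higher without the same replicate, and Bmp4 was 2.11-fold higher (0.0371). Without Myc/Akt1 replicate 1, 2 or 3 the limma adjusted p of Igfbp3 was 0.0537, 0.0694 and 0.0963, and that of Bmp4 was 0.0804 to 0.144 on leaving out replicate 1 or 2 of either group. Cxcl12, a chemokine held by heparan sulfate, was 2.95-fold higher in Myc/Akt1, at 49.3 ± 12.8 against 145 ± 36.8 CPM (SD, n = 3 each; limma adjusted p = 0.00195). Fgf1 was 2.45-fold higher in Myc/Akt1 (limma adjusted p = 0.0230) and not called with TMM factors. Hgf, Vegfa and Tgfb1 were among the 14 not called, with limma adjusted p of 0.341, 0.0792 and 0.758.

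In the Hedgehog pathway, whose ligands Gpc3 binds, 10 genes were tested and 1 was called in each direction. With TMM factors 2 were called toward Myc/NrasG12V and 1 toward Myc/Akt1. The ligand Dhh was 11.5-fold higher in Myc/NrasG12V, at 2.17 ± 1.13 against 0.189 ± 0.127 CPM (SD, n = 3 each; limma adjusted p = 0.00723). The receptor Ptch1 (log2 difference 0.00, limma adjusted p = 0.994), the signal transducer Smo (0.14, 0.668) and the target and effector Gli1 (-0.47, 0.0976) were not called. Shh had 0 reads in all 6 libraries.

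Of 14 genes of lipoprotein clearance, in which hepatocyte Sdc1 takes part, 4 were called toward Myc/NrasG12V and 3 toward Myc/Akt1, and with TMM factors 5 and 1. Apoc2, the activator of lipoprotein lipase, was 3.64-fold higher in Myc/NrasG12V (limma adjusted p = 0.00570). Lipc, hepatic lipase, which is held on heparan sulfate, was 3.99-fold higher in Myc/Akt1, at 17.5 ± 7.24 against 69.7 ± 33.9 CPM (SD, n = 3 each; limma adjusted p = 0.00622). Both were called in every alternative. Also higher in Myc/NrasG12V were Angptl8 (3.13-fold, limma adjusted p = 0.0207; 7.10-fold without Myc/Akt1 replicate 3) and Lpl (1.74-fold, 0.0410), neither of them in every alternative. On leaving out replicate 1 or 2 of either group the limma adjusted p was 0.0564 to 0.0773 for Angptl8, and that of Lpl was 0.0749 to 0.135 without any library but Myc/NrasG12V replicate 1.

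Markers of the cell types a liver tumour can hold moved with the groups as well. All 11 hepatocyte markers in the files were detected, as the labels imply, and summed to 155845 to 201759 CPM in Myc/NrasG12V and 46408 to 63860 CPM in Myc/Akt1, with 5 called toward Myc/NrasG12V and 0 toward Myc/Akt1. Most of that sum was Alb, at 123707, 118151 and 90716 CPM in Myc/NrasG12V and 29894, 32330 and 38466 CPM in Myc/Akt1. Alb was thus 3.30-fold higher in Myc/NrasG12V by means, without overlap. It was not called (limma adjusted p = 0.184), since its log2 difference of 1.72 had an SE of 0.95. Hnf4a was not called (0.792), and Ttr (2281 against 4332 CPM, 0.0785), Apoa2 (1663 against 2651 CPM, 0.173) and Asgr1 (286 against 415 CPM, 0.0976) had higher means in Myc/Akt1 without being called. Summed CPM did not overlap either for the 7 cholangiocyte markers (425 to 968 against 128 to 262, of which Spp1 was called), the 8 macrophage markers (177 to 324 against 120 to 159, 3 called), the 6 T and NK cell markers (10.1 to 27.7 against 4.41 to 6.06, 3 called), the 7 neutrophil markers (27.3 to 153 against 3.54 to 4.58, 5 called) and the 7 erythroid markers (276 to 1697 against 48.1 to 93.9, 6 called), all higher in Myc/NrasG12V. The sums overlapped for the 10 stellate cell and fibroblast markers (408 to 442 against 358 to 612), the 9 endothelial markers (174 to 293 against 203 to 239), the 8 B and plasma cell markers (3.64 to 7.54 against 4.54 to 5.74, with Tnfrsf17 at 0 reads) and the 6 neural and glial markers (3.92 to 6.60 against 5.89 to 12.5, with Sox10 at 0 reads). Single markers of these lists were called nonetheless. Toward Myc/NrasG12V were Pdgfra of the stellate cell and fibroblast list (3.63-fold) and the endothelial Stab2, Lyve1, Clec4g and Vwf (6.03-fold for Vwf). Toward Myc/Akt1 were the endothelial Cdh5 (1.76-fold) and Mzb1 of the B and plasma cell list (5.44-fold). The neural and glial list had 1 call in each direction. The cholangiocyte sum was mostly Spp1, at 951, 517 and 409 CPM in Myc/NrasG12V and 250, 115 and 250 CPM in Myc/Akt1. No other marker of that list was called. The called macrophage markers were Clec4f, Marco and Vsig4. Adgre1, C1qa and Timd4 overlapped between the groups (limma adjusted p = 0.904, 0.130 and 0.180), and Csf1r was not called (0.0884). Cd68 had a higher mean in Myc/Akt1, at 21.5 against 25.2 CPM, without being called (limma adjusted p = 0.378). Against the T and NK cell sum, Cd4 and Ncr1 were higher in Myc/Akt1 without overlap. Cd4 was at 1.29 against 2.49 CPM and was not called, and Ncr1 had 2 against 19 reads and was not tested. The part of these shifts in the differences of Gpc3, Sdc4 and the other genes was not tested.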

How the data were processed

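Poly(A) RNA of 6 liver tumour samples was sequenced single-end from a stranded kit, per the labels' protocols. The deposited values are CPM per gene, and GRCm38, STAR 2.6.1c, edgeR 3.22.5 and Subread 1.6.3 stand in the submitters' processing notes. The annotation release and the strand setting of the counting are not given in the sources used here. Whole reads were recovered from the deposited CPM within 0.01 read for 100% of values, and the libraries held 17881282 to 27865094 reads. Of 39179 genes, 37607 matched GENCODE M21, the source of coordinates and exon lengths.

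Genes passing the filterByExpr rule of edgeR (14365) were compared with limma 3.58.1 (R 4.3.3; trend, two-sided) on log2(CPM + 1), with Benjamini-Hochberg adjustment over all of them. A fold is the ratio of the mean CPM of each group. edgeR 4.0.16 on the recovered reads called 4893 genes and DESeq2 1.42.0 called 5543. Other alternatives were scaling factors, filters, pseudocounts, no trend, a replicate block and each library left out. The statistics were tested on simulated data, where small fold changes were mostly missed and false calls exceeded the nominal rate. The simulation changed far fewer genes than were called here and had no shift in library make-up. Its rates therefore cannot be carried over to these data. An uncalled gene may still differ, and calls, those of small size among them, may be less certain than the threshold states.

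The 9 genes, the lists and the rule for named genes were chosen with earlier results of these data known, so the lists' counts are descriptions. The rule named all 9 genes, the 3 tested genes of lowest adjusted p of each list and any gene on which a count of 5 or fewer turns, called neighbours, the 3 nearest profiles of each called gene, and Myc, Nras and Akt1. Others, such as Notum, Sdcbp, Prkca, Slc26a2, Hgf, Vegfa, Tgfb1, Ptch1, Smo and Gli1, were named after their values were seen, for their known roles. Some genes that these rules select are not reported here.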

Additional observations from a re-analysis of the deposited data

How the results depend on the processing

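Across the 9 genes, 161 values under alternatives were computed: 145 stayed on their side of the threshold, 16 lost the call and 0 reversed. Over all named genes 1759 values gave 1510, 242 and 0, and 7 gained a call. The count of all genes higher in Myc/NrasG12V, 1437, was 2331 with TMM, 2366 with median-of-ratios and 2544 with upper-quartile factors, 2381 with edgeR and 2752 with DESeq2, and 954 to 1545 with a library left out. The count higher in Myc/Akt1, 4240, was 2565, 2515, 2343, 2512 and 2791 in the same order, and 2871 to 4808. Of the glypicans and syndecans, 3 to 4 were higher in Myc/NrasG12V with a library left out, and 0 to 2 in Myc/Akt1, with 1 under each of those 5 settings. Genes of the heparan sulfate lists higher in Myc/NrasG12V, 21, numbered 33 with upper-quartile factors and 37 with DESeq2, and 12 to 22 with a library left out. Those higher in Myc/Akt1, 21, numbered 9, 8, 8, 9 and 9, and 12 to 21. Neighbours higher in Myc/NrasG12V numbered 2, 2, 3, 3 and 3, and those higher in Myc/Akt1 10, 10 and 9 with the scaling factors and 10 with edgeR, and 1 and 12 to 20 with a library left out. The summed level of all 9 genes, 3.91-fold, was 5.08-fold with upper-quartile factors, and 3.43 to 4.27-fold with a library left out. The syndecan sum, 1.96-fold, was 2.43-fold with TMM and 2.52-fold with upper-quartile factors, and 1.82 to 2.08-fold. The glypican sum was 17.4 to 28.2-fold with a library left out. The scaling factors, estimated from the counts, were 0.85 to 0.97 for the Myc/NrasG12V libraries and 1.11 to 1.15 for the Myc/Akt1 libraries. Dividing by them raises Myc/NrasG12V relative to Myc/Akt1. Other causes of these changes were not tested.

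With the replicate number as a block 5530 genes were called, and 4 and 2 of the 9 genes as before. Same-numbered libraries deviated from their group means with correlations of -0.08, 0.11 and 0.08, so the numbers were not taken to pair the samples. Not every library correlated best with its own number. Gpc2 had only 30 and 37 reads, and whether its overlap with Gm43720 lowered them was not tested.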
